A study of Mus musculus with 2 samples.

Results

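Splicing factors and heterogeneous nuclear ribonucleoproteins (hnRNPs) were examined in mouse cells labelled as lymphoma, on 1 array from cells grown in medium containing serum and 1 array from cells kept in co-culture with endothelial cells, which form the inner lining of vessels. The members were the genes whose single platform symbol begins with Srsf, Sfrs, Sf3a, Sf3b, Snrp, Hnrnp, Hnrp, Prpf or U2af, with Snrpn left out, and all these symbols were current RefSeq names. This gave 61 genes and 173 probe sets, out of 18193 genes and 45101 probe sets on the array. The labels give no genotype, strain, lymphoma line, source of the endothelial cells or length of culture, do not name the medium of the co-culture, and do not say whether lymphoma and endothelial cells were sorted apart for RNA. There were no replicates, so differences are given without a test and nothing measures the spread between cultures.

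Splicing removes introns from pre-mRNA in a machine, the spliceosome, that is built anew on each intron from small nuclear ribonucleoproteins (snRNPs) and many further proteins. The U1 snRNP recognises the start of the intron, U2AF and the U2 snRNP with its SF3a and SF3b subcomplexes recognise its end and branch point, and the tri-snRNP of U4, U6 and U5 brings the parts that form the catalytic centre. SR proteins bind exons and mostly favour their inclusion, while many hnRNPs bind exons or introns and oppose it, so the balance of both families shifts alternative splicing. In lymphocytes, hnRNP L and its relative hnRNP LL are known for silencing variable exons of Ptprc, the CD45 antigen.

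Of the 61 members, 60 were measured, meaning that the probe set used for the gene exceeded an intensity of 44.3, the pooled median of all values, on at least 1 array. Srsf12, an SR-related repressor, was the exception, with intensities of 2.12 in serum culture and 1.59 in co-culture. A difference is the log2 intensity in co-culture minus that in serum culture, with values below 44.3 set to 44.3, and a gene counted as called when it reached 1 in size, which is 2-fold. The members were mostly slightly higher in co-culture, and almost none reached 2-fold. Among the 60, 2 members (3.33%) passed 2-fold on the higher side against 4.6% of all 11542 measured genes, and 0 passed it on the lower side against 10.1%. A log2 difference above 0 was found for 48 members (80%) against 45.9% of all measured genes, and the median was 0.21 against -0.06. Most members, 44 of 60 (73.3%), lay within 0.5 of no difference on the log2 scale, as did 59.1% of all measured genes. Beyond 0.5 there were 12 members on the higher side and 4 on the lower, where all genes had 15.7% higher and 25.2% lower.

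The direction of these small differences depends on how the arrays are scaled. The 18 probe sets of the hybridisation spikes had a mean log2 difference of 0.19 ± 0.06 (SD over probe sets). Several of these probe sets read the same spike. With scaling to the spikes, 32 of 60 members lay above 0 against 33.3% of all genes. In that setting 0 members reached 2-fold, and the member median was 0.018 against -0.25. The members' median exceeded that of all genes by 0.27 as reported, by 0.27 with the spikes, and by 0.12 to 0.36 over all 11 alternative settings. Spike scaling and subtraction of the median difference take a constant from all genes, so they could hardly change this gap. The floor alternatives left the members' median at 0.21, so there only the median of all genes could move. The offset from other genes is therefore the quantity reported, and a rise in amount per cell is not. In bulk RNA, fewer cells of a type and less RNA per cell cannot be told apart.

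**Figure D1:**
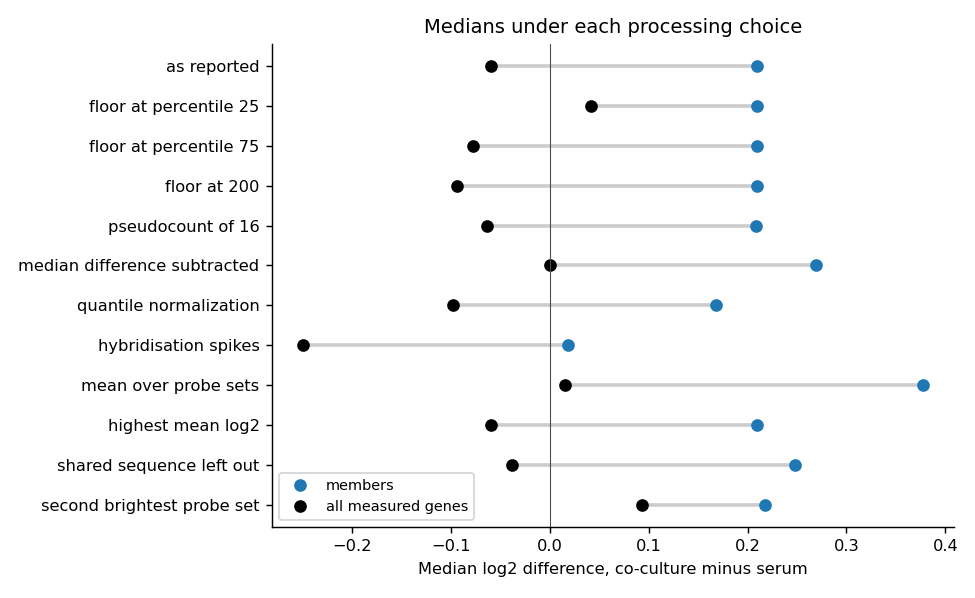
Median log2 difference of the members (blue) and of all measured genes (black) as reported and under 11 alternative settings, where shared sequence left out means without identifiers ending in _s_at, _x_at or _a_at. The members' median lies right of that of all genes in each setting, by 0.12 with the second brightest probe set to 0.36 with the mean over probe sets, and it is nearest to 0 (0.018) with scaling to the hybridisation spikes.

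**Figure D2:**
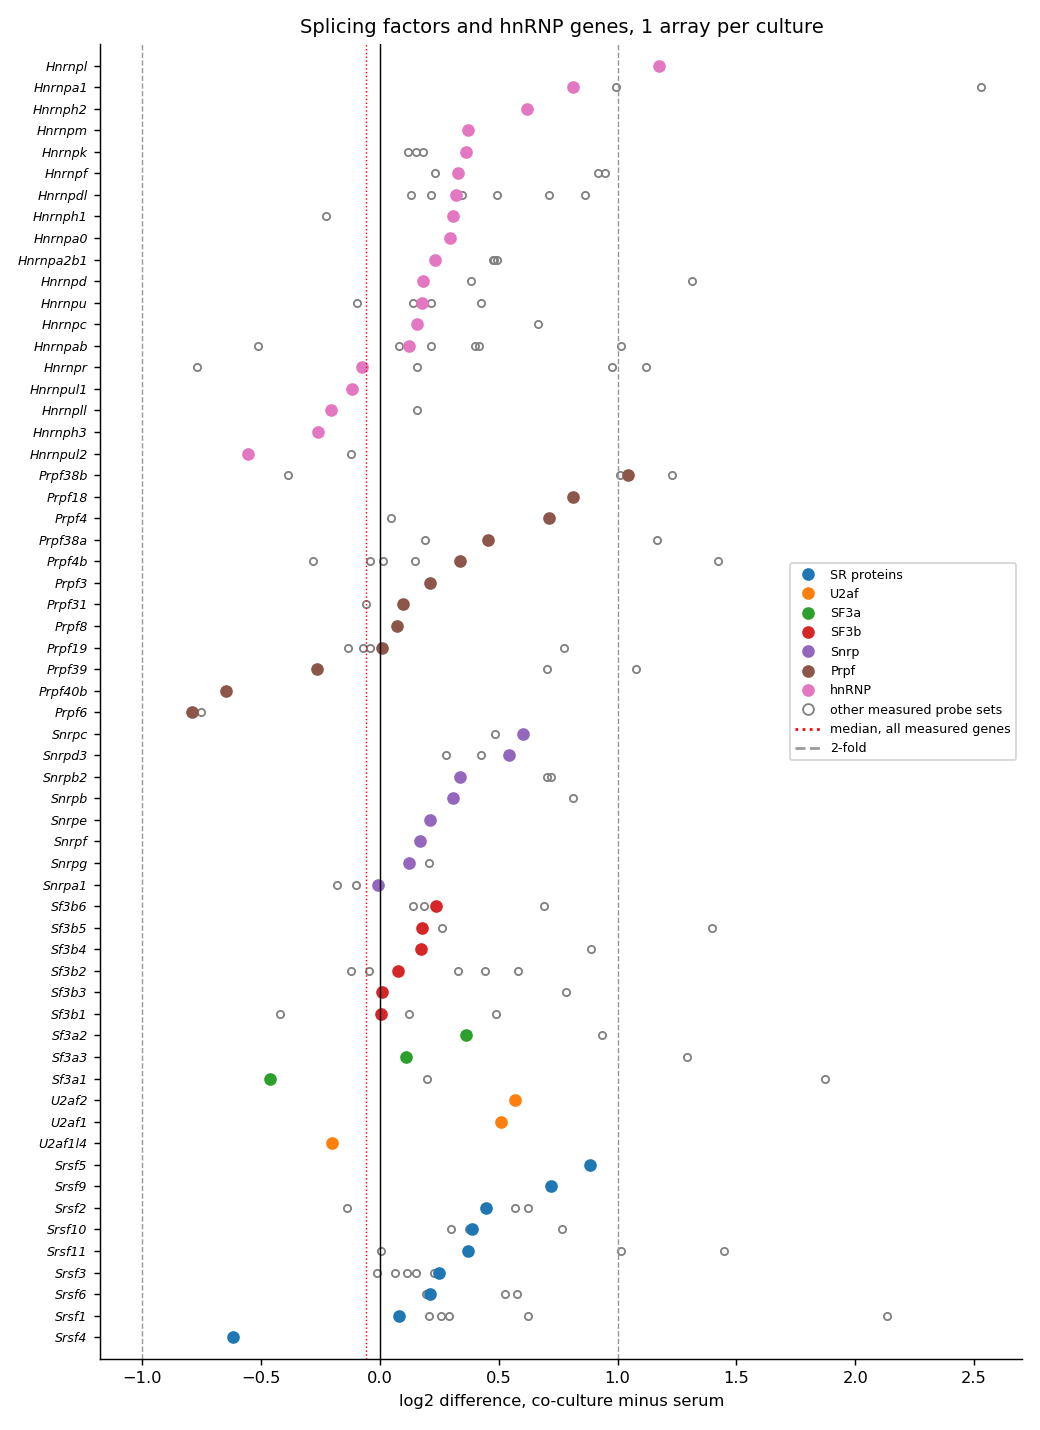
Log2 difference, co-culture minus serum, for the 60 measured members grouped by family; filled points are the brightest probe set of each gene, open points its other measured probe sets, 1 array per culture. Filled points lie between -0.79 (Prpf6) and 1.17 (Hnrnpl), 48 of them right of 0, and the dotted line marks the median of all measured genes at -0.06.

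The members were bright, and brightness itself went with small differences. Of the 60, 56 had a mean intensity over both arrays of at least 1000, and 46 of these lay above 0 (82.1%) against 47.3% of the 4597 genes as bright, with medians of 0.21 and -0.03. At a mean of at least 4000, 33 of 35 members lay above 0 (94.3%) against 55.4% of 1314 genes, with medians of 0.21 and 0.04. The members therefore also stood on the higher side of genes of similar brightness, at differences that no replicate supports. The 3′ to 5′ intensity ratio, a sign of RNA length, was 3.56 in serum culture and 2.05 in co-culture for Actb, 2.54 and 1.88 for Gapdh, and 13.2 and 5.03 for Tfrc. The RNA of the co-culture array was thus the less 3′-biased by each of the 3 controls, and the part of this gap in the members' differences was not tested.

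Markers of the named cells gave little sign of either cell type. Of 20 endothelial markers 4 were measured, and the summed intensity of all 20 was 893 in serum culture and 1058 in co-culture, with Egfl7 the brightest (473 and 532). Pecam1 and Cdh5, which define endothelium, had 21.3 and 19.6 in serum culture and 18.4 and 44.1 in co-culture, all below the limit of measurement. Of 13 B cell markers with a probe set 5 were measured, of 10 T cell markers 2, of 15 pan-leukocyte markers 4 and of 12 macrophage markers 3, and none of these reached 200. Summed over every marker with a probe set, measured or not, the intensities were 385 and 516 for B cells, 196 and 274 for T cells, 487 and 472 for leukocytes in general and 199 and 340 for macrophages. Of 12 markers of fibroblasts and stroma 7 were measured, and the sum over all 12 was 8695 and 8670, mostly Vim. The samples are therefore called by their labels.

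Hnrnpl was the member with the largest difference. It encodes an hnRNP that binds CA-rich RNA. Its probe set had an intensity of 515 in serum culture and 1162 in co-culture, 2.26-fold higher in co-culture, and its other probe set was not measured. With spike scaling the log2 difference of Hnrnpl was 0.98, just under the limit. Its relative Hnrnpll differed little, with 3796 and 3290 (log2 difference -0.21) and 0.16 by its other probe set. Ptprc, whose exons both proteins are known to silence, was below the limit on both arrays (21.5 and 3.14), so its splicing could not be examined here.

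Prpf38b, related to a component of the spliceosome before its activation, was the other member past 2-fold. Its brightest probe set had 1239 and 2557, 2.06-fold higher in co-culture. Of its 3 other measured probe sets, 2 were also past 2-fold higher (log2 differences of at least 1.23 and at least 1.01, since both were below 44.3 in serum culture), but the second brightest had 1956 and 1495, or -0.39. The probe sets that gave opposite directions were close in mean intensity, 1898 and 1725, so the call for Prpf38b rests on the choice between them. At the other end, Prpf6, which bridges the U5 and U4/U6 parts of the tri-snRNP, had the lowest difference of the members. Its intensity was 5333 in serum culture and 3082 in co-culture (log2 difference -0.79), and its second measured probe set gave -0.75 (1839 and 1092). Prpf6 stayed within 2-fold by both.

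The promoters of these members are shown, with that of Hnrnpa1, which had the highest difference of any single member probe set. By the value used per gene, Srsf5 and Prpf18 lay above Hnrnpa1, and their promoters are not shown. Each is the 250 bases before the RefSeq transcription start, 5′ to 3′ on the gene's strand in GRCm38.p6: Hnrnpl at chr7:28810640-28810889 (plus strand), Prpf38b at chr3:108911730-108911979 (minus), Prpf6 at chr2:181601069-181601318 (plus) and Hnrnpa1 at chr15:103240147-103240396 (plus). Capitals mark matches on either strand to the GC box GGGCGG, the CCAAT box CCAAT, or any of 4 other motifs searched.
Hnrnpl: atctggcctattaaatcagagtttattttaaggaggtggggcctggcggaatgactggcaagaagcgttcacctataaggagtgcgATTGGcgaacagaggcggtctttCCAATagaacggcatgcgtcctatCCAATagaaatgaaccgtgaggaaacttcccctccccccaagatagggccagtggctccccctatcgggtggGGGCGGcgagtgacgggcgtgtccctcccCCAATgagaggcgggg
Prpf38b: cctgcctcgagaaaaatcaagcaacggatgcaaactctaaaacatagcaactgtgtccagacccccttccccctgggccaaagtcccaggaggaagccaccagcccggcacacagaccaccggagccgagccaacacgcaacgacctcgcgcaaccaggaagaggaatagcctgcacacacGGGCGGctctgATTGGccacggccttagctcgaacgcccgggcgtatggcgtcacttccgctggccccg
Hnrnpa1: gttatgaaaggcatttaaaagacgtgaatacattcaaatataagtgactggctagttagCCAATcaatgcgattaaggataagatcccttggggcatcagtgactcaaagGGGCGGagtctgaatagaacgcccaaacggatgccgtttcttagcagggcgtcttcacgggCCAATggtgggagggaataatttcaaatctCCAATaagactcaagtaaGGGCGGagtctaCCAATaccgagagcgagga
Prpf6: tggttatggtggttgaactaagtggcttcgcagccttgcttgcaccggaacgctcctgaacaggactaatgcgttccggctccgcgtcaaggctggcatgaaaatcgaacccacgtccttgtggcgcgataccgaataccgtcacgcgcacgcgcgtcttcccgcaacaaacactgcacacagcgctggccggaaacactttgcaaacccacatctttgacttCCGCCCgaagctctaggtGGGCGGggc
The promoters of Hnrnpl and Hnrnpa1 each held 4 CCAAT matches, that of Prpf38b held 1, and that of Prpf6 held none, while all of them held at least 1 GGGCGG match. These genes were picked by unlike rules and only Prpf6 stands for the lower side, so the counts show no trend with direction. The other motifs searched, also on both strands, were TATAAA (the TATA box), CCGGAAG (an ETS core), CACGTG (an E-box) and TGACGTCA (a CRE), and none of them matched in these windows. RefSeq windows were found for 53 of the 60 measured members, 70 windows in all, some genes having several. GGGCGG was in 64.3% of them against 32.7% of all 32851 windows, CCAAT in 50% against 33.8%, CCGGAAG in 30% against 6.91%, and TATAAA in 5.71% against 12.4%. CACGTG was in 7.14% against 6.02%, and TGACGTCA in 1.43% against 1.55%. All windows include those of genes not measured here, and the members' windows were not compared with those of genes of similar brightness. Adjacent matches can overlap, and a match is a description of the letters only.

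Among the SR proteins, 8 of 9 measured members lay above 0 and none reached 2-fold, with a median log2 difference of 0.37. Srsf5, which has a single probe set, had 2178 in serum culture and 4020 in co-culture, a 1.85-fold difference that was the highest of the family. Srsf9 followed with 2591 and 4267 (log2 difference 0.72). Srsf4, one of the larger SR proteins, was the only measured SR member on the lower side, with 1265 and 824 (-0.62). The 3 are each read by 1 probe set only.

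The founding and most studied SR proteins differed less. Srsf1, also called ASF/SF2, had 12678 and 13401 (log2 difference 0.08), and all 6 of its measured probe sets lay above 0. One of them, with 565 and 2478, gave 2.13, which set the widest gap within the family. Srsf2, known as SC35, had 4596 and 6256 (0.44), with other probe sets from -0.14 to 0.62. Srsf3, which also acts as an mRNA export adaptor, had 8952 and 10630 (0.25), and its 6 probe sets kept between -0.01 and 0.25. Srsf6, Srsf10 and Srsf11 had 0.21, 0.39 and 0.37. All 4 probe sets of Srsf6 and all 4 of Srsf10 lay above 0, and those of Srsf11 ran from 0.00 to 1.45 (54.4 to 148 for the highest).

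U2AF recognises the end of the intron through its large subunit, which binds the polypyrimidine tract, and its small subunit, which binds the AG. The large subunit gene U2af2 had 897 in serum culture and 1328 in co-culture (log2 difference 0.57), and the small subunit gene U2af1 had 4313 and 6137 (0.51). Both values were higher in co-culture as deposited, by amounts near the pooled SD of 0.48 between probe sets of the same member. With spike scaling U2af2 had 0.37 and U2af1 had 0.32. U2af1l4, a paralog of the small subunit, had 979 and 853 (-0.20). Each has 1 probe set.

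The SF3b subcomplex of the U2 snRNP showed little difference by the brightest probe sets, and more by some of the others. All 6 SF3b genes among the members lay between 0.01 and 0.24 by their brightest probe sets, with a median of 0.12. Sf3b1, which clamps the branch point helix, had 5313 and 5335 (0.01), though its other probe sets ran from -0.42 to 0.49. Sf3b3, a scaffold subunit, had 6451 and 6491 (0.01), but at least 0.78 by a dim probe set that was below 44.3 in serum culture, and Sf3b6, which lies near the branch point adenosine, had 4598 and 5417 (0.24). Sf3b5, a small subunit, had 4409 and 4985 (0.18), while a dim probe set of it gave 1.40 (59.6 and 157). The other probe sets of Sf3b2 ran from -0.12 to 0.58, and that of Sf3b4 gave 0.89.

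SF3a, which joins SF3b to the rest of the U2 snRNP, gave mixed values. Sf3a1 had 2446 in serum culture and 1775 in co-culture (log2 difference -0.46) by its brightest probe set, but 372 and 1359 (1.87) by the second. Sf3a3 had 1661 and 1791 (0.11) by one and 937 and 2294 (1.29) by the other, at nearly equal brightness. Sf3a2 had 2223 and 2855 (0.36), and 0.93 by its other probe set. For Sf3a1 the probe sets thus gave opposite directions, and for Sf3a3 the size depended on the probe set.

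All 5 member genes of the Sm ring, the protein core shared by most spliceosomal snRNPs, lay above 0, between 0.12 and 0.54. Snrpd3 was the highest, with 8660 in serum culture and 12624 in co-culture (0.54), and its 3 probe sets gave 0.28 to 0.54. Snrpb had 5825 and 7201 (0.31, and 0.81 by its other probe set), and Snrpg had 11288 and 12292 (0.12). Snrpe and Snrpf, read by 1 probe set each, had 0.21 and 0.17. Every probe set of the 5 Sm genes was on the higher side as deposited; with spike scaling a shift of 0.19 is taken from each, which places Snrpf and Snrpg below 0.

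Of the proteins of single snRNPs, Snrpc of the U1 snRNP had 2709 and 4113 (log2 difference 0.60), and Snrpb2 of the U2 snRNP had 6585 and 8322 (0.34). Snrpa1, the partner of Snrpb2 in the U2 snRNP, had 5499 and 5461 (-0.01), with all 3 of its probe sets slightly below 0. By their brightest probe sets the partners thus differed in sign, by less than the pooled SD of 0.48 between probe sets of the same member. The other probe sets of Snrpb2 gave 0.70 (3167 and 5152) and 0.72 (103 and 169), further from Snrpa1 than that SD.

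**Figure D3:**
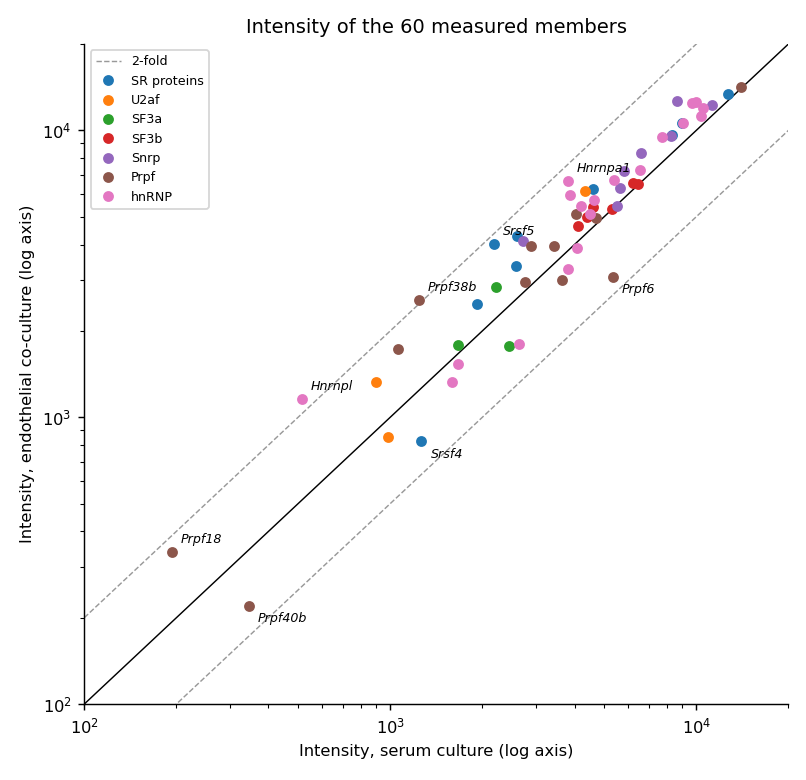
Intensity of the 60 measured members in serum culture (x, log axis) and endothelial co-culture (y, log axis), 1 point per gene coloured by family, with the line of equality and dashed 2-fold lines. Hnrnpl (515 and 1162) and Prpf38b (1239 and 2557) lie on or above the upper 2-fold line, and no member lies below the lower one.

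The pre-mRNA processing factors had the widest spread of the families, from -0.79 to 1.05, with 9 of 12 above 0 and a median of 0.15. In the tri-snRNP, Prpf8, the scaffold of the catalytic centre, had 4695 and 4930 (0.07). Prpf31 and Prpf3 of the U4/U6 part had 0.10 and 0.21, and Prpf4, also of that part, had 1058 and 1730 (0.71, and 0.05 by a dimmer probe set). Prpf6 with -0.79 was the only tri-snRNP gene among these 5 on the lower side.

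Outside the tri-snRNP, Prpf18, a factor of the second catalytic step, had 193 and 340 (log2 difference 0.81). Prpf40b, associated with the U1 snRNP, had 346 in serum culture and 221 in co-culture (-0.65), again by 1 probe set. Prpf19, the ubiquitin ligase at the core of the complex named after it, had 14015 and 14119 (0.01), with 3 of 5 probe sets slightly below 0 and another at 0.78. Prpf4b, a kinase of spliceosome proteins, had 0.33 with probe sets from -0.28 to 1.42, and Prpf39, associated with the U1 snRNP, had -0.27 with others at 0.70 and 1.08. Prpf38a had 0.45, and all 3 of its probe sets lay above 0.

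Among the hnRNPs, 14 of 19 measured members lay above 0, 1 of them past 2-fold, with a median log2 difference of 0.23. Hnrnpa1, a repressor of exon inclusion that antagonises Srsf1, had 3810 in serum culture and 6684 in co-culture, 1.75-fold higher. Its other probe sets gave 0.99 (2114 and 4203) and 2.53 (126 and 727), so all 3 were on the higher side by unequal amounts. The identifier of the brightest marks probes that can bind other sequences, and without it the probe set at 0.99 would be the brightest. The identifier of that one marks several transcripts of the gene. The brightest probe sets of Prpf6, Prpf19, Snrpa1, Sf3b2, Hnrnpf, Hnrnpab and Hnrnpr carry the same mark as the brightest of Hnrnpa1. The other genes of the A, B and D group, Hnrnpa0, Hnrnpa2b1, Hnrnpab, Hnrnpd and Hnrnpdl, had 0.12 to 0.32. Hnrnpa2b1 had 9072 and 10649 (0.23), with all 4 probe sets between 0.23 and 0.49.

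The F and H group, which binds runs of G, gave Hnrnph2 with 3866 and 5935 (log2 difference 0.62) and Hnrnpf with 0.33. Hnrnph1 had 0.31, but -0.23 by its other probe set (1540 and 1315), and Hnrnph3 had 1591 and 1329 (-0.26). All 4 probe sets of Hnrnpf lay above 0, from 0.23 to 0.95. Hnrnpk, which binds C-rich RNA and DNA, had 9700 and 12483 (0.36), with 4 probe sets between 0.12 and 0.36. Hnrnpc and Hnrnpm had 0.16 and 0.37.

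The U group, nuclear matrix-associated proteins, was the hnRNP group with the most members on the lower side. Hnrnpul2 had 2639 in serum culture and 1798 in co-culture (-0.55, and -0.12 by its other probe set), and Hnrnpul1 had 1666 and 1535 (-0.12). Hnrnpu itself had 10552 and 11930 (0.18), with 1 of 5 probe sets below 0. Hnrnpr had 4089 and 3878 (-0.08), and its other probe sets ran from -0.77 to 1.12.

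Probe sets of the same gene, the only repeated measure here, often gave different sizes. Of the 42 members with several measured probe sets, 24 had all of them above 0, 3 (Prpf6, Snrpa1 and Hnrnpul2) had all below 0, and 15 were mixed. The same counts were not made over all genes, so whether these are unusual cannot be read from them. Over single probe sets, 80.7% of the 166 of the members lay above 0 against 52.6% of all measured probe sets. In 12 of the 42 (28.6%) the log2 differences spanned 1 or more, against 33.2% of the 5478 such genes on the array. These were Srsf1, Srsf11, Sf3a1, Sf3a3, Sf3b5, Prpf38b, Prpf39, Prpf4b, Hnrnpa1, Hnrnpab, Hnrnpd and Hnrnpr. Only Hnrnpab (-0.51 to 1.02) and Hnrnpr had probe sets beyond 0.5 in both directions. The pooled within-gene SD was 0.48 for the members and 0.60 for all genes, so the differences of the 44 members within 0.5 of 0 are about the size of the spread between probe sets, or smaller.

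Over all 166 measured probe sets of the members, 17 (10.2%), from 14 genes, were at least 2-fold higher against 8.16% of all measured probe sets, and 0 were at least 2-fold lower against 8.06%. The higher ones were mostly dim. Below a mean intensity of 200, 7 of 19 were at least 2-fold higher (36.8%) against 12.5%, between 200 and 1000 it was 7 of 24 (29.2%) against 8.4%, and at 1000 or more it was 3 of 123 (2.44%) against 2.56%. No member probe set was 2-fold lower in any of these classes, where all probe sets had 8.52%, 11.7% and 3.88%. The medians of the members in these classes were 0.72, 0.53 and 0.21, and those of all probe sets were 0.15, -0.08 and 0.00. A probe set counted as measured when above 44.3 on either array, so a dim one could enter through the array where it was higher. In the lowest class several member probe sets, among them some past 2-fold, exceeded 44.3 in co-culture only. The median of all values was 36.9 in serum culture and 50.7 in co-culture. The share and median of that class depend on this entry rule, as can the gap between dimmest and brightest probe sets. In 29 of the 42 members (69.0%) the dimmest measured probe set gave a higher difference than the brightest, as in 65.0% of all such genes. The median gap, dimmest minus brightest, was 0.41 over all 42 members and 0.25 over all 5478 such genes. Where each probe set lies along its transcript was not analysed here, and the part of the 3′ to 5′ gap in this pattern was not tested.

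**Figure D4:**
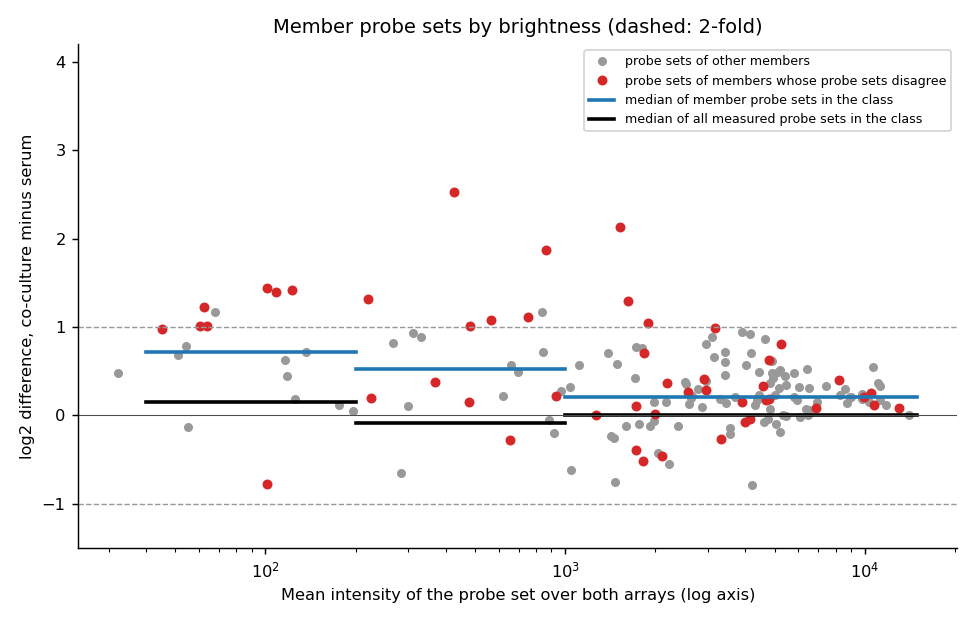
Log2 difference of the 166 measured member probe sets against their mean intensity over both arrays (log axis), with probe sets of the 12 disagreeing members in red; bars are class medians of member probe sets (blue) and of all measured probe sets (black). Member medians are 0.72, 0.53 and 0.21 from the dimmest to the brightest class, and 0 points lie below the lower dashed 2-fold line.

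The splicing genes outside these families had a lower median than the members as deposited, a difference that was not tested. Over 9 lists, 157 of 169 genes with a probe set were measured, 2 (1.27%) passed 2-fold on the higher and 5 (3.18%) on the lower side, against 4.6% and 10.1% of all measured genes. Above 0 lay 91 (58.0%) against 45.9%, and the median was 0.06. With spike scaling it was -0.13 against 0.018 for the members. By the second brightest probe sets it was 0.27 against 0.22, so in that setting the members had the lower median. The SR-related coactivators had the highest median, 0.21 over 23 genes, with 1 past 2-fold: Srrm2, a scaffold of nuclear speckles, had 1973 and 3989, and all 3 of its probe sets lay above 0. The LSm proteins, relatives of the Sm proteins, had a median of 0.19 over 12 genes, yet Lsm14b, a cytoplasmic mRNP protein with an LSm domain, was 2.72-fold lower in co-culture (3491 to 1281). The exon junction complex and nonsense-mediated decay genes had 0.14 over 11, and the SMN complex, which loads the Sm ring, had 0.12 over 13, with none past 2-fold in either list.

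The remaining lists centred near 0. The 30 genes of the list for the Prpf19 complex, tri-snRNP and catalytic steps had a median of 0.00 with 15 above 0. That list also holds Snrnp70 of the U1 snRNP (0.69) and Phf5a of SF3b (0.28). In it 1 gene was at least 2-fold lower: Sart1 of the tri-snRNP (1572 to 771), for which another probe set gave 1.61. The 14 helicases also centred near 0, with a median of -0.00056. Among them Dhx38, the helicase that acts before the second step, was 2.45-fold lower (930 to 380, and 0.48 by another probe set). The 11 genes listed as SR protein kinases and phosphatases had a median of 0.09, with none past 2-fold. Their largest differences were on the lower side, for the kinases Clk2 (1245 to 640, or -0.96) and Srpk2 (2733 to 1450, or -0.91). Other probe sets of Srpk2 gave up to 1.84. The list also holds the nuclear import receptors Tnpo1 (0.56) and Tnpo3 (0.03). The 7 genes of the minor spliceosome had -0.10, and Zmat5 of its U11/U12 snRNP was 2.31-fold lower (432 to 187). Of 36 alternative splicing regulators outside the families, with a median of 0.09, Mbnl3 was 2.01-fold higher (440 to 884; a log2 difference as low as 0.19 by its other probe sets) and Elavl4, which binds AU-rich RNA in neurons, was at least 2.06-fold lower (91.5 to 42.3; 0.96 by another probe set).

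**Figure D5:**
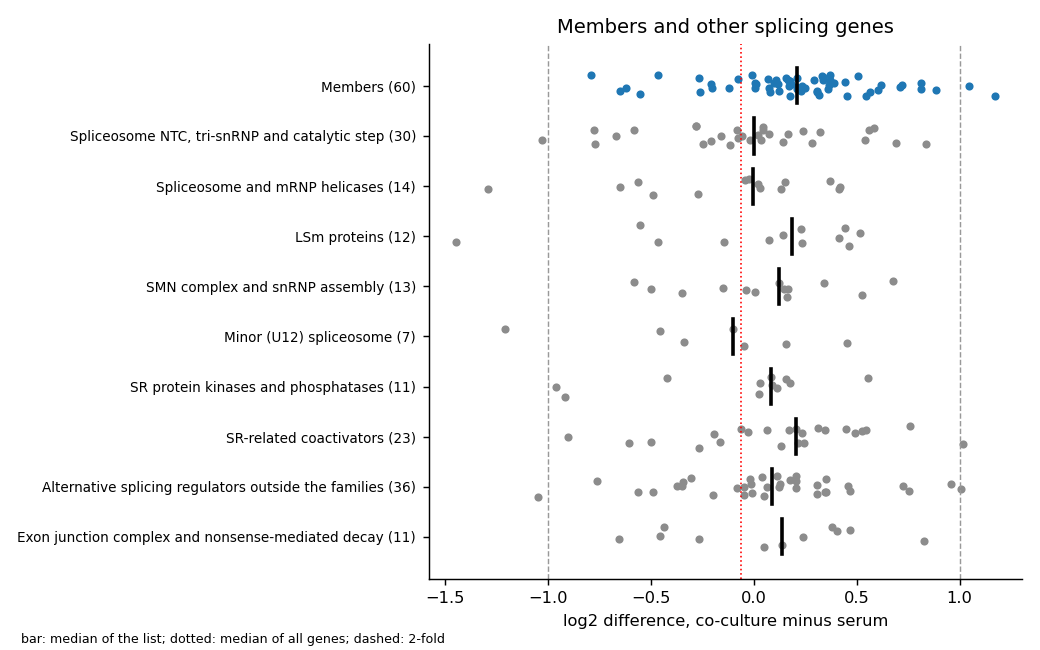
Log2 difference of the 60 measured members and of the measured genes of 9 other splicing lists, 1 point per gene, with a bar at each median and the number of genes in brackets. The members' median (0.21) lies right of the dotted line for all measured genes (-0.06), the SR-related coactivators reach the same median, and the minor spliceosome (-0.10) lies lowest.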

How the data were processed

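Per the labels' protocols, total RNA was primed at its poly(A) tail, and biotin-labelled cRNA made from it was read on arrays of 1 colour. The authors deposited a linear intensity per probe set for 2 samples. How background and scaling were handled is not given in the sources used here. The means after trimming 2% at each end were 500.003 on both arrays and the medians 36.9 and 50.7, a pattern that global scaling would leave.

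Gene names came from the platform annotation, brought up to date through RefSeq (GRCm38.p6). Among the 34945 probe sets with 1 symbol, control probe sets left out, each gene took the one with the highest mean over both samples. Another 12 probe sets with several symbols include a symbol of these families. They are not named, and 11 were measured, with differences from -0.34 to 0.58. A fold against a value set to the floor is a lower bound. Simulated arrays of this comparison were used to check the steps: 100% of 100 genes raised 4-fold and 100% of 100 lowered 4-fold were recovered, among 6735 genes. Dim genes were left out, all probe sets of a gene changed together, and the noise was smaller than the spread between real probe sets. The check therefore covers the computing steps only, and says nothing of differences near 2-fold. Python 3.11.15, numpy 2.4.6 and pandas 2.3.3 were used.

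Named genes were every member past 2-fold, the 2 highest and 2 lowest of each of 7 families and 12 fixed names. Of the fixed names, Srsf7 is not among the members. From each other list up to 3 genes past 2-fold in each direction were named. Further members are named to complete their families. Some further genes of the other lists are named outside this rule, to describe what a list holds or its largest differences. The members, lists, groups within families and motifs were chosen with earlier results of these data known. No test was made, since each group holds 1 sample.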

Additional observations from a re-analysis of the deposited data

How the results depend on the processing

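No paired analysis was possible because each group holds 1 sample, and no sample could be left out. Over 11 alternatives, the count of members at least 2-fold higher was 2 or 3 except with the hybridisation spikes (0), and the count at least 2-fold lower was 0 in each. The members' median moved to 0.018 with the spikes and 0.38 with the mean over probe sets. The count of members above 0, added after the data were seen, ran from 32 of 60 with the spikes to 51 of 60 with the mean over probe sets. In the other splicing lists, the 2 higher genes became 0 with the spikes, 6 without probe sets of shared sequence or several transcripts (suffixes _s, _x and _a) and 13 with the second brightest probe set. The 5 lower genes became 9 with the spikes, 2 with the mean over probe sets, and 3 with each of the floor at percentile 75, subtraction of the median difference, the second brightest probe set and those suffixes left out. Among 335 values of 32 named members, 14, of 11 genes, changed sign. With the second brightest probe set Prpf38b turned to -0.39, Sf3a1 to 1.87 and Srsf2 to -0.14, and with the mean over probe sets Sf3a1 turned to 0.54. With the spikes 7 fell below 0 (Prpf8, Sf3a3, Sf3b1, Sf3b3, Sf3b5, Snrpg and Srsf1, from -0.01 to -0.19), with quantile normalization Sf3b1 and Sf3b3 did (-0.02 and -0.01), and with the median subtracted Snrpa1 turned to 0.05. Leaving Prpf38b aside, 6 values, among them both of Sf3a1, moved by more than the pooled SD of 0.60 between probe sets of a gene. The spike scaling is a shift of all genes, and the cause of the other changes was not tested.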
